A study of Mus musculus with 8 samples.

Results

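The genes described here encode the machinery by which a skeletal muscle fibre releases calcium at each contraction and takes it back afterwards. They were chosen by name, as the 10 genes Cacna1s, Ryr1, Jph1, Trdn, Casq1, Casq2, Atp2a1, Atp2a2, Sln and Pvalb, and all 10 were among the 14012 genes of the deposited count table. Polyadenylated RNA of quadriceps femoris (QF), a large thigh muscle, was sequenced from 4 Grpel1 skm-/- mice, called knockout here, and from 4 control mice labelled Grpel1 flox/flox, with 1 library per mouse. Grpel1 encodes a co-chaperone that helps proteins into the mitochondrial matrix. Both groups carried floxed Grpel1 alleles, and in the knockout mice the gene was deleted by Cre-ERT2, a recombinase made from the human skeletal α-actin (HSA) promoter and switched on by tamoxifen. The promoter acts in muscle fibres, so the other cells of the muscle keep the gene. By the study's account tamoxifen was begun at 5 weeks of age, and the knockout mice reached a weight-loss end point within 5 weeks of it. When the mice of these libraries were killed is not stated. The study's text speaks of flox/flox littermates as untreated where it describes body weight. Its body weight curve, however, also includes floxed mice that lacked Cre and were given tamoxifen. Which of these the 4 controls were, and whether they carried Cre, is not stated. The labels name no treatment for any of the 8 libraries, knockouts included. Where these 4 controls had no tamoxifen, the drug and the deletion cannot be told apart.

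In a resting fibre most calcium lies inside the sarcoplasmic reticulum (SR), bound to calsequestrin. When the membrane of the transverse tubule is depolarised, the voltage sensor (the dihydropyridine receptor, DHPR) pulls open the ryanodine receptor of the SR, and calcium flows into the cytosol and starts contraction. SERCA pumps then return the calcium to the SR, small membrane peptides hold these pumps back, and parvalbumin binds calcium in the cytosol of fast fibres. Fast and slow fibres differ in the genes they use for several of these tasks. Atp2a1 serves mainly in fast fibres, and Atp2a2 and Casq2 serve in slow fibres, in heart and in developing muscle.

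The 8 libraries held 16017565 to 20361144 counts, and 3 counts, the most that a count of 0 allows, were worth 0.119 to 0.242 CPM, counts scaled to a common library size. Values are CPM over library sizes scaled by the TMM method, which corrects for composition, since the 20 most abundant genes took 36.5% to 40.1% of the counts of each control library and 19.7% to 23.5% of each knockout library. Fewer fibres of a type and less RNA of a gene per fibre cannot be told apart in whole muscle. The count of the whole Grpel1 gene did not part the groups (68.4 ± 3.04 CPM in controls and 65.3 ± 6.11 in knockouts, SD, n = 4 each), so every direction below rests on the labels.

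Of the 10 genes, 3 were higher in the knockout libraries (Sln, Casq2 and Atp2a2) and 7 were lower (Pvalb, Casq1, Atp2a1, Jph1, Trdn, Cacna1s and Ryr1) at an adjusted p under 0.01 in the quasi-likelihood test of edgeR, with Benjamini-Hochberg adjustment over all genes. Changes were common in this comparison, and 23.6% of all genes were higher and 21.1% lower by the same rule. In each of the 10 genes the 4 knockout values lay entirely above or entirely below the 4 control values, as they did in 29% of all genes upwards and 24.4% downwards. The exact permutation test of the CPM (two-sided) gave p = 0.0286 for each of the 10, the smallest that 4 against 4 allow. The median log2 fold change was -1.22 over the 10 genes and 0.065 over all genes.

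**Figure D1:**
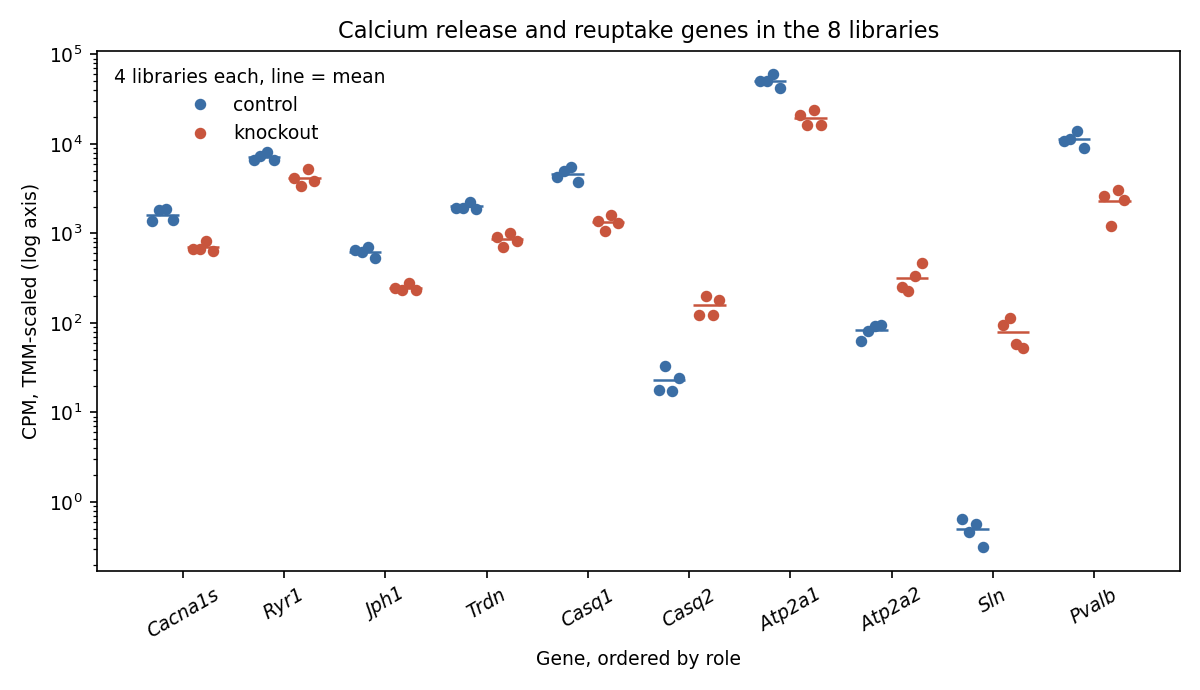
CPM of the 10 genes in each library on a log axis, 4 control and 4 knockout points per gene with a line at the group mean. Sln, Casq2 and Atp2a2 sit higher in every knockout library than in any control library, and the other 7 genes sit lower.

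The voltage sensor and the release channel were both lower. Cacna1s encodes the pore and voltage-sensing subunit of the DHPR, and it had 1392, 1806, 1866 and 1410.5 CPM in controls 1 to 4 and 670.2, 667, 826 and 631 CPM in knockouts 1 to 4. Every knockout value was thus under the lowest control value, with means of 1619 ± 253 and 699 ± 86.9 CPM (SD, n = 4 each). This was 2.32-fold lower, with a log2 fold change of -1.21 (SE, the standard error, 0.13, adjusted p = 3.3e-05 with edgeR). The gene lies on the plus strand of chromosome 1 of GRCm38 from 136052901 to 136119822.

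Ryr1 encodes the skeletal ryanodine receptor, the channel through which the SR empties. It had 6603, 7316, 8109.9 and 6601 CPM in controls and 4161, 3427, 5212 and 3806 CPM in knockouts. The groups did not overlap, but the highest knockout came nearer to the lowest control than in Cacna1s. The means were 7158 ± 719 and 4151 ± 768 CPM (SD, n = 4 each), 1.72-fold lower, with a log2 fold change of -0.79 (SE 0.15, adjusted p = 0.0011 with edgeR). This was the smallest change of the 10, and the only one whose call changed with another scaling. When libraries were scaled by their totals alone and not by TMM, the log2 fold change of Ryr1 was -0.12 (edgeR adjusted p = 0.32), while the median of all genes moved to 0.73, so the value of Ryr1 relative to that median was -0.86. Ryr1 lies on the minus strand of chromosome 7 from 29003340 to 29125151.

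Jph1 and Trdn, which encode proteins of the junction between the transverse tubule and the SR, were both lower. Junctophilin 1, the product of Jph1, ties the 2 membranes together, and triadin, the product of Trdn, links the ryanodine receptor to calsequestrin. Jph1 had 661, 617, 708 and 527 CPM in controls and 245, 231, 281 and 235 CPM in knockouts. The mean went from 628 ± 77.2 to 248 ± 22.98 CPM (SD, n = 4 each), with log2 fold change -1.34 (SE 0.11, adjusted p = 4.4e-06 with edgeR). Trdn had 1943, 1934, 2263 and 1899 CPM in controls and 904, 702, 1016 and 825 CPM in knockouts. Control 3 stood above the other controls in Trdn, and every knockout lay under all of them. The log2 fold change of Trdn was -1.22 (SE 0.12, adjusted p = 1.9e-05 with edgeR), and -1.16 without control 3. Jph1 lies on chromosome 1 from 16994938 to 17097889 (minus strand) and Trdn on chromosome 10 from 33083483 to 33476709 (plus strand).

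The calsequestrin genes moved in opposite directions. Casq1 encodes the main calcium-binding protein of the SR of fast fibres. It had 4279.8, 5011, 5477 and 3732 CPM in controls and 1393, 1072, 1622 and 1301 CPM in knockouts. The highest knockout had less than the lowest control, and the means were 4625 ± 773 and 1347 ± 228 CPM (SD, n = 4 each), 3.43-fold lower (log2 fold change -1.78, SE 0.16, adjusted p = 9.8e-06 with edgeR). Casq2, the form known from heart and slow fibres, had 17.7, 33.1, 17.4 and 24.4 CPM in controls and 124, 198, 124 and 182 CPM in knockouts. Its raw counts were 219 to 505 in controls and 2977 to 4573 in knockouts. This was 6.78-fold higher, with a log2 fold change of 2.76 (SE 0.24, adjusted p = 7.1e-06 with edgeR), and controls 2 and 4 and knockouts 2 and 4 were the higher libraries of their groups.

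Although Casq2 rose, it remained the minor form. Its share of the calsequestrin RNA, per kb of exon, was 0.379% ± 0.128 in controls and 8.28% ± 3.07 in knockouts (SD, n = 4 each), and the sum of both genes was 2477 ± 412 CPM per kb in controls and 781 ± 108 in knockouts. Casq1 lies on chromosome 1 from 172209894 to 172219895 (minus strand) and Casq2 on chromosome 3 from 102086455 to 102146514 (plus strand).

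Since these related genes moved apart, the 250 bases before their RefSeq starts (GRCm38.p6) are shown, each written 5′ to 3′ on the strand of its gene, at chr1:172219896-172220145 (minus strand) for Casq1 and chr3:102086165-102086414 (plus strand) for Casq2. Capitals mark the E-box CANNTG, the motif bound by the myogenic bHLH factors, which reads the same on both strands, and the match to the MEF2 motif.
Casq1: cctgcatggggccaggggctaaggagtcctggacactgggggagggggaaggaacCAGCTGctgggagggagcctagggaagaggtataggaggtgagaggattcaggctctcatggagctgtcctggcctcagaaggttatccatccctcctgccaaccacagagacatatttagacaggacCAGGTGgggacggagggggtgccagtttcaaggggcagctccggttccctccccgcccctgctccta
Casq2: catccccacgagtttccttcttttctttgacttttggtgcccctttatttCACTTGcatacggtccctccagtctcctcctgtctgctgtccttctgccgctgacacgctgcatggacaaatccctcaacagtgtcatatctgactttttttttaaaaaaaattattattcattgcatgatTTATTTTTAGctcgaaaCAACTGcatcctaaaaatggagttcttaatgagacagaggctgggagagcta
Both windows hold 2 E-boxes, starting 195 and 67 bases before the start in Casq1 and 200 and 52 bases before it in Casq2. The MEF2 match, which lies 69 bases before the start, is in the Casq2 window alone of the pair and does not overlap an E-box. An E-box is in 66.2% of all 32851 promoter windows of this length and the MEF2 motif in 2.92%, on either strand. RefSeq windows were held for 6 of the 10 genes (7 windows, 2 of them for Pvalb), of which 5 had an E-box and 2 a MEF2 match. The MEF2 match outside Casq2 was in a window of Pvalb, 180 bases before its start. Pvalb was lower in knockouts (log2 fold change -2.30), so the match did not go with 1 direction. The GC content was 61.6% in the Casq1 window and 41.6% in the Casq2 window.

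The genes of the SR calcium pumps showed the same opposition. Atp2a1 encodes SERCA1, the pump of fast fibres, and ranked 2 of all genes by mean raw count in both groups. It had 50374, 51017, 59872 and 41905 CPM in controls and 20875, 16484, 24175 and 16217 CPM in knockouts. No knockout library reached the lowest control, and the mean fell 2.61-fold, from 50792 ± 7340.2 to 19438 ± 3812 CPM (SD, n = 4 each), with a log2 fold change of -1.39 (SE 0.19, adjusted p = 0.00014 with edgeR). Atp2a2, which encodes SERCA2, a pump of slow fibres and heart and of other cells too, had 63.5, 81.9, 91.7 and 93.8 CPM in controls. In knockouts it had 252, 226, 336 and 467 CPM, with knockout 4 the highest. The change was 3.87-fold upwards, with a log2 fold change of 1.95 (SE 0.22, adjusted p = 4.7e-05 with edgeR), and 1.70 without knockout 4. Counts were of the whole Atp2a2 gene and do not separate its transcripts or the cells that made them.

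SERCA2 RNA stayed rare beside SERCA1 RNA. Per kb of exon Atp2a2 made up 0.0996% ± 0.0248 of the RNA of both pumps in controls and 1.02% ± 0.459 in knockouts (SD, n = 4 each). The sum of both was 14780 ± 2134 CPM per kb in controls and 5706 ± 1105 CPM per kb in knockouts, so the gain in Atp2a2 was small beside the loss in Atp2a1. Atp2a1 lies on chromosome 7 from 126445860 to 126463073 and Atp2a2 on chromosome 5 from 122453513 to 122502225, both on the minus strand. Exons of Atp2a1 overlap Rabep2 on the opposite strand in GENCODE M21, and whether the counting used strand is not stated, but Rabep2 had a mean count of 186, against 359966 to 836576 counts for Atp2a1.

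Sln had the largest fold change of the 10 genes. It encodes sarcolipin, a peptide of the SR membrane that binds SERCA and lowers its calcium transport. Raw counts were 8, 7, 8 and 5 in controls 1 to 4 and 2268, 2481, 1394 and 1323 in knockouts 1 to 4. On the CPM scale the controls had 0.646, 0.458, 0.573 and 0.315 and the knockouts 94.6, 114, 57.5 and 52.6. The gene was thus barely detected in any control library and clearly present in every knockout library, with knockouts 1 and 2 above knockouts 3 and 4. The ratio of the means was 159.8, and the fitted log2 fold change was 7.33 (SE 0.37, adjusted p = 3.2e-07 with edgeR). Its size rests on 28 control reads in all. By mean raw count Sln ranked 13118 of 14012 genes in controls and 1677 in knockouts.

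Mrln, which encodes myoregulin, another small inhibitor of SERCA in skeletal muscle, went the other way. It had 57.0, 43.4, 57.0 and 38.4 CPM in controls and 3.38, 2.38, 4.29 and 4.49 CPM in knockouts. Every knockout value lay far under the lowest control, and the mean was 13.5-fold lower, with a log2 fold change of -3.74 (SE 0.21, adjusted p = 5.2e-07 with edgeR). The groups of Pln, the gene of phospholamban, the inhibitor best known from heart, overlapped at 3.44 to 7.07 CPM in controls and 2.94 to 4.09 in knockouts, with a log2 fold change of -0.70 that missed the threshold (edgeR adjusted p = 0.019). That threshold was passed without control 3 (-0.87, edgeR adjusted p = 0.0029) and with DESeq2 (-0.75, adjusted p = 0.0042).

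The coding sequences of the pump inhibitors that moved furthest apart are short enough to show whole, from GENCODE M21 on GRCm38, with the start and stop codons in capitals. That of Sln is 96 bases for 31 residues at chr9:53853473-53853568 and that of Mrln 141 bases for 46 residues at chr10:70219496-70219636, both on the plus strand and each within 1 exon.
Sln: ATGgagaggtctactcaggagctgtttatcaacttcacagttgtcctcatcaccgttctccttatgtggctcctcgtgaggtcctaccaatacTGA
Mrln: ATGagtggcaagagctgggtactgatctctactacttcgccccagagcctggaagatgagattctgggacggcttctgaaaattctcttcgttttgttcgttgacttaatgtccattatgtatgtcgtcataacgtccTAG
The Sln gene spans 53850251 to 53853849 of chromosome 9 with 520 exon bases, and Mrln spans 70204664 to 70219711 of chromosome 10 with 446. The counts were of read pairs on exons of the whole gene, so they do not show which part of the RNA was read.

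Pvalb, the gene of parvalbumin, fell the most of the 7 lower genes. It had 10717, 11441, 14024 and 9089.8 CPM in controls and 2599.5, 1221, 3034 and 2351 CPM in knockouts. Knockout 2 had the least, and the highest knockout had less than the lowest control. The means were 11318 ± 2054 and 2301 ± 773 CPM (SD, n = 4 each), 4.92-fold lower, with a log2 fold change of -2.30 (SE 0.26, adjusted p = 4.6e-05 with edgeR), and -2.10 without knockout 2. Pvalb lies on the minus strand of chromosome 15 from 78191117 to 78206351.

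**Figure D2:**
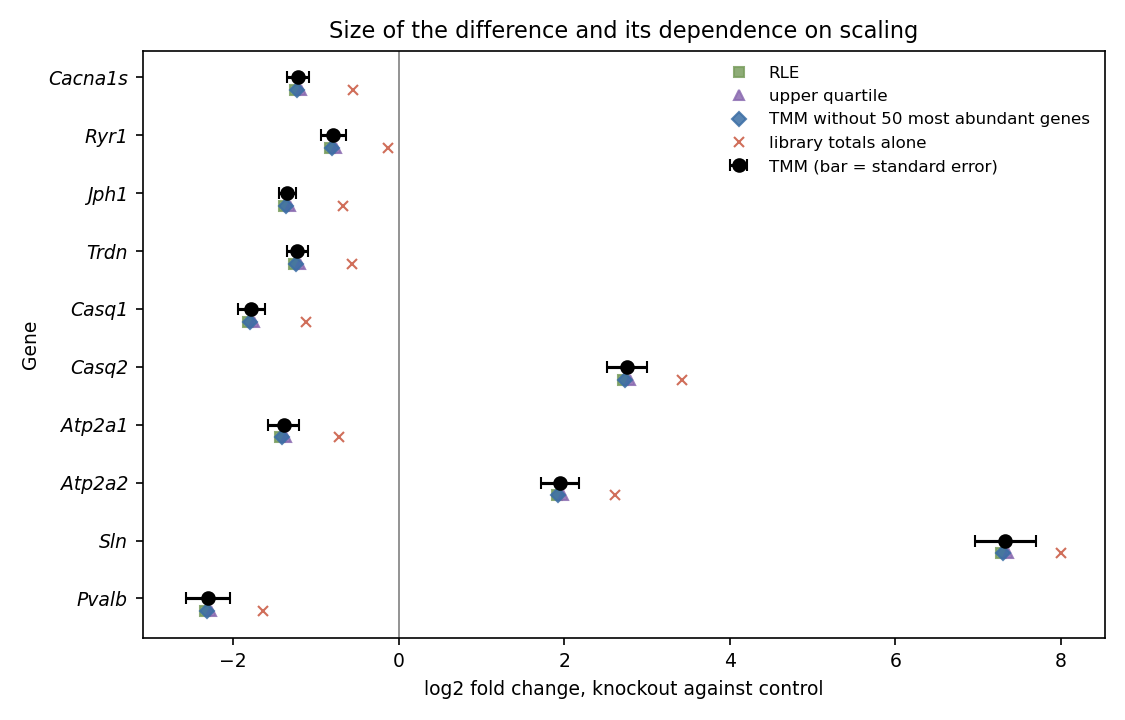
log2 fold change of the 10 genes, knockout against control, with TMM scaling (black, bars are standard errors) and with 4 other scalings beside it. The RLE, upper-quartile and reduced TMM values lie close to the TMM value, and library totals alone move every gene upwards by about the same amount, which brings Ryr1 to -0.12.

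Ratios of genes within the same library do not depend on how libraries are scaled. For this reason 9 ratios of counts per kb of exon were compared, and in each all knockout libraries lay on 1 side of all control libraries. In the 6 ratios between genes that were lower, the exact permutation test gave p = 0.0286 (two-sided), the smallest possible. Benjamini-Hochberg adjustment over the 9 could not change this value, since all 9 lie at that minimum. In the other 3, of a higher gene to a lower gene or to the sum of both pumps, the separation follows from the CPM values above, so their sizes are a description and no test is given. Of the 5 genes set against Ryr1, the least reduced of the lower genes, Casq1 differed by the most. The log2 ratio of Casq1 to Ryr1 was 2.40 ± 0.126 in controls and 1.41 ± 0.068 in knockouts (SD, n = 4 each), a difference of -0.98. The differences were -0.60 for Atp2a1, -0.54 for Jph1, -0.43 for Trdn and -0.41 for Cacna1s against Ryr1. Relative to Ryr1, each of these 5 genes was thus lower in every knockout library than in any control library. The direction followed from the fold changes above, and the ratios add only the separation of the libraries. Pvalb fell further than Atp2a1, with a difference in their log2 ratio of -0.96, or -0.76 without knockout 2.

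Each paralogue pair joins a higher and a lower gene, so its ratio changed by more than the ratios among the lower genes did. The log2 ratio of Atp2a2 to Atp2a1 was -10.37, -10.02, -10.09 and -9.54 in controls and -7.11, -6.92, -6.90 and -5.85 in knockouts. Knockout 4 stood above the other knockouts, and the ratio rose 9.88-fold on average (difference 3.30 on the log2 scale, 3.02 without knockout 4). The ratio of Casq2 to Casq1 rose 23.6-fold, from a log2 mean of -8.10 ± 0.520 to -3.54 ± 0.585 (SD, n = 4 each). Sln against the sum of both pumps rose by 8.68 on the log2 scale. In linear terms this ratio of counts per kb was 4.97e-05 to 8.48e-05 in controls and 0.0156 to 0.0452 in knockouts.

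**Figure D3:**
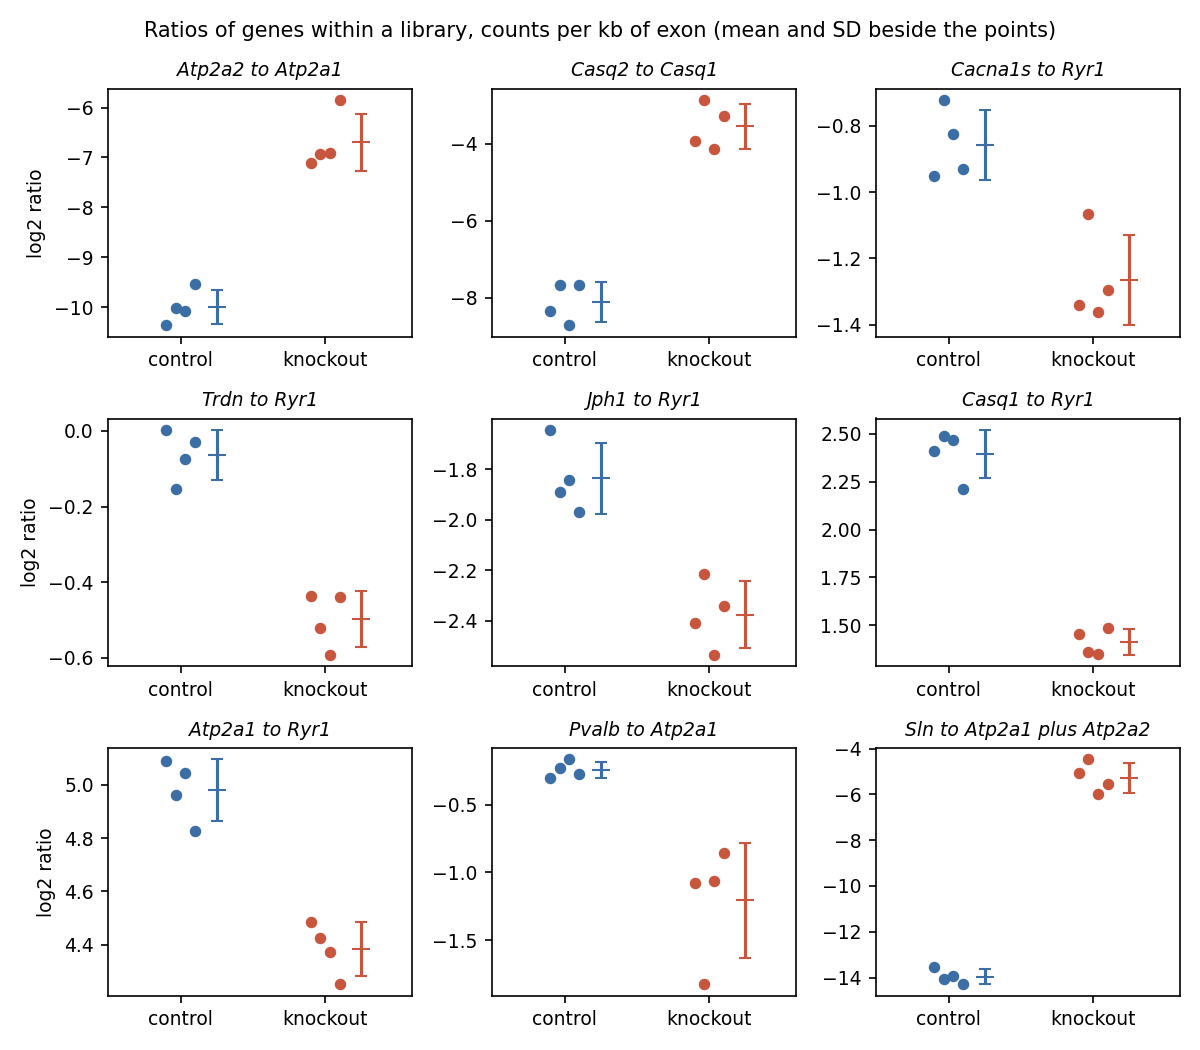
log2 ratio of counts per kb of exon between the named genes, 1 panel per ratio, with 4 control (left) and 4 knockout (right) libraries and the mean and SD beside them. No panel has overlapping groups, and knockout 4 is highest in Atp2a2 to Atp2a1 and knockout 2 lowest in Pvalb to Atp2a1.

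Per kb of exon the order of the genes was alike at the top of both groups and changed at the bottom. In controls Atp2a1 (14765 ± 2134 CPM per kb, SD, n = 4) led, its range overlapping that of Pvalb (12520 ± 2273), and Casq1 (2468 ± 412) followed. Ryr1 and Trdn came next with overlapping ranges (466 ± 46.8 and 445 ± 37.6), then Cacna1s (259 ± 40.3) and Jph1 (131 ± 16.05). Atp2a2 (14.4 ± 2.42) and Casq2 (9.20 ± 2.93) overlapped, and Sln (0.958 ± 0.278) was last. In knockouts Atp2a1 (5651 ± 1108 CPM per kb), Pvalb (2546 ± 856) and Casq1 (719 ± 122) kept their places with no overlap between them. Ryr1 (270.2 ± 49.99) and Trdn (191 ± 29.3) followed with overlapping ranges. Sln (153 ± 56.6) now stood 6 of 10, its range overlapping those of Trdn and Cacna1s (112 ± 13.9). Casq2 (62.4 ± 15.3), Atp2a2 (55.9 ± 18.96) and Jph1 (51.6 ± 4.78) were last, and each overlapped the next. Together the 10 genes took 6.18% ± 0.617 of all counts in controls and 3.71% ± 0.507 in knockouts.

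Markers of fibre type and of developing fibres moved with these genes, and their part in the result was not tested. Of 8 fast fibre markers 6 were lower, 1 was higher (Myh1) and 1 missed the threshold (Myh2), and their summed level was 163422 to 211723 CPM in controls and 56236.5 to 80918 in knockouts, so markers of the labelled skeletal muscle were abundant in every library. Of 7 slow fibre markers 5 were higher and 0 lower, and 3 to 6 were higher in the fits without 1 library. Myh7 (log2 fold change 3.93, edgeR adjusted p = 0.012) and Myl3 (0.21, edgeR adjusted p = 0.83) missed the threshold, and their groups overlapped. The calls of Myl2 and Tpm3, whose groups overlapped, were lost in 7 and 6 of those 8 fits, among them each fit without 1 control. The slow markers summed to 61.3 to 141 CPM in controls. Knockouts 4, 3, 1 and 2 had 1227, 663, 441 and 198 CPM, the order of the 4 libraries in Atp2a2 too. Each slow marker but Tnni1 kept this order by itself. Tnni1 had 123, 76.2, 50.9 and 43.7 CPM in knockouts 4, 2, 3 and 1. Myh7, the slow myosin gene, had 6.18 CPM in knockout 2, inside the control range of 3.27 to 39.9. Casq2 and Sln, in contrast, were highest in knockout 2. All 7 markers of developing or denervated fibres were higher, with sums of 24.3 to 57.2 CPM in controls. Knockouts 2, 4, 3 and 1 had 1938, 1640, 1042.5 and 1009 CPM of these markers. Casq2 was likewise high in knockouts 2 and 4 (198 and 182 CPM). Sln did not follow this order, since it was lowest in knockout 4 (52.6 CPM).

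Heart and smooth muscle also use Atp2a2, and heart uses Casq2 and Sln. The heart markers Myh6 and Tnni3 summed to 2.08 to 5.63 CPM in controls and 1.42 to 2.98 CPM in knockouts, 0 of the 2 called, and Nppa and Nppb were not analysed here. Of 6 smooth muscle and pericyte markers 0 were higher and 4 lower, and their sum was 424 to 679 CPM in controls and 382 to 435 CPM in knockouts. Of the other lists, 4 of 5 endothelial and 4 of 6 fibroblast markers were lower and none was higher, 2 of 4 satellite cell markers were higher and 1 lower, 1 of 6 macrophage markers was higher, and none of 6 adipocyte or 4 Schwann cell markers passed. With library totals alone 8498 of all 14012 genes were higher and 873 lower, and these marker counts differed. Then 0 endothelial markers passed, 1 fibroblast marker was lower and 1 higher, and 0 smooth muscle markers were lower and 1 higher. By the same scaling 3 satellite cell markers were higher and 0 lower, and 5 macrophage markers were higher. Also, 1 Schwann cell and 1 heart marker passed upwards. Adipocyte markers varied widely among the libraries, at 30.6 to 889.9 CPM summed in controls and 373 to 1591 in knockouts.

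**Figure D4:**
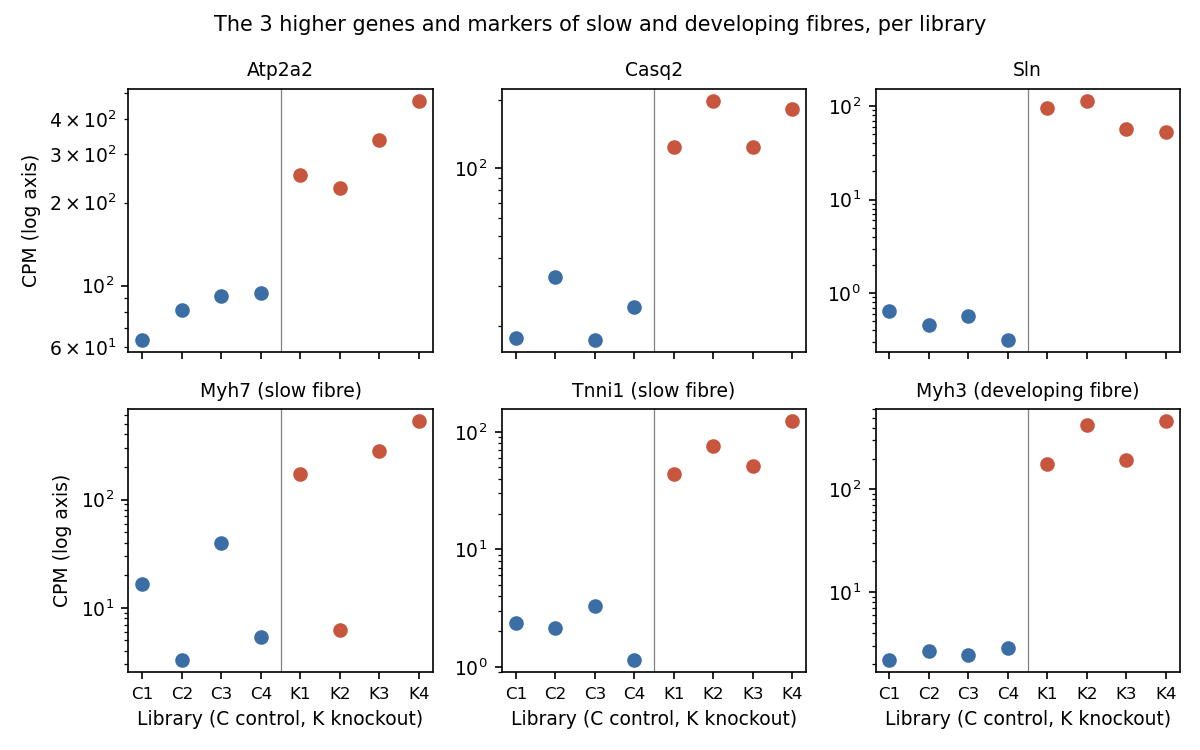
CPM (log axes) of Atp2a2, Casq2 and Sln, and of Myh7, Tnni1 (slow fibre) and Myh3 (developing fibre), in control libraries C1 to C4 and knockout libraries K1 to K4. Knockout 2 is low in Myh7 (6.18 CPM) and is the highest of the 8 in Casq2 (198 CPM) and Sln (114 CPM).

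The rest of the calcium-handling genes were read from a list of 71, of which 66 were in the table (Ryr2, Strit1, Atp2b2, Slc8a2 and Mcub were not analysed here). By edgeR's test 14 were higher (21.2%, beside 23.6% of all genes) and 35 lower (53.0%, beside 21.1%), with a median log2 fold change of -0.50. With library totals alone the split was 30 higher and 18 lower, around a median of all genes of 0.73. By that scaling 8498 of all 14012 genes were higher and 873 lower. The counts with library totals given below for each role are to be read beside these.

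All 5 genes of DHPR subunits and coupling passed, 2 higher and 3 lower. Stac3, an adaptor needed for the voltage sensor to open the ryanodine receptor, had 383 ± 64.5 CPM in controls and 102 ± 6.37 in knockouts (SD, n = 4 each), with log2 fold change -1.91 (SE 0.12, adjusted p = 1.1e-06 with edgeR). The auxiliary subunits differed in direction. Cacna2d1 (-0.92) and Cacng6 (-0.90) were lower on the log2 scale, while Cacng1 was higher (0.73, edgeR adjusted p = 0.00012) and Cacnb1 slightly higher (0.39, edgeR adjusted p = 0.0074). The call of Cacnb1 was lost with RLE scaling (adjusted p = 0.016) and in 6 of the 8 fits without 1 library, and that of Cacng6 with library totals, which gave 2 higher and 2 lower.

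Of 10 other release channels and modulators 1 was higher and 4 lower, or 5 and 3 with library totals alone. Ryr3, the ryanodine receptor known from developing muscle, had 1.21, 1.18, 1.22 and 0.189 CPM in controls and 4.38, 4.30, 3.96 and 5.41 CPM in knockouts. Its log2 fold change was 2.27 (SE 0.36, adjusted p = 0.00039 with edgeR), or 1.90 without control 4, which had 3 reads of the gene. Calm3, a calmodulin gene whose product binds and tunes the release channel, was lower (log2 fold change -1.93, edgeR adjusted p = 5.5e-07). The IP3 receptor gene Itpr1, named after its values were seen, was also lower (-1.61).

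Of 16 genes of triad structure and SR proteins 9 were lower and 4 higher, or 4 and 7 with library totals alone. Jph2, the second junctophilin gene of muscle, had 1698, 1745, 2057 and 1541 CPM in controls and 461, 416, 459 and 402 CPM in knockouts, and every knockout lay under the lowest control (log2 fold change -2.02, SE 0.11, adjusted p = 4.3e-07 with edgeR, beside -1.34 for Jph1). Speg, a kinase at the triad (-1.21), Sypl2, the gene of mitsugumin 29 (-1.20), and Tmem38a, the gene of the SR potassium channel TRIC-A (-1.01), were also lower. Asph, whose products include junctin (-0.87), and the genes of the calcium-binding SR proteins sarcalumenin (Srl, -0.87) and Hrc (-0.84) were lower with TMM but missed the threshold with library totals. Mtm1 rose 2.72-fold, from 18.3 ± 1.63 to 49.8 ± 6.04 CPM, and Dnm2 2.02-fold, from 57.9 ± 3.29 to 117 ± 7.06 CPM (SD, n = 4 each). These encode myotubularin and dynamin 2, which are both tied to centronuclear myopathy (log2 fold changes 1.44 and 1.01, edgeR adjusted p = 2.2e-06 and 1.9e-06). Tmem38b and Mtmr14, named after their values were seen, were the other 2 higher genes (0.56 and 0.51).

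Among 8 other pumps, exchangers and regulators 1 was higher and 5 lower, or 2 and 2 with library totals alone. Atp2a3, the gene of SERCA3, which is known outside muscle fibres, was 12.0 ± 1.11 CPM in controls and 20.5 ± 2.07 in knockouts (log2 fold change 0.76, edgeR adjusted p = 0.00013). The sodium-calcium exchanger gene Slc8a1 was 28.6 ± 5.20 CPM in controls and 8.82 ± 1.47 in knockouts (log2 fold change -1.70, edgeR adjusted p = 9.6e-06). Besides Mrln, described above, the lower genes were Slc8a3, Atp2b3 and Atp2b4, named after their values were seen (-1.17, -0.69 and -0.55). The calls of these 3 were lost with library totals (-0.50, -0.02 and 0.11), and that of Atp2b4 also without control 2.

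The genes of store-operated entry, by which a fibre refills its store from outside, split by member. Orai2, which encodes a channel of the plasma membrane, rose from 1.22 ± 0.138 to 5.67 ± 0.999 CPM (SD, n = 4 each, log2 fold change 2.21, edgeR adjusted p = 5.3e-06). The store sensor gene Stim2 fell (-1.09, edgeR adjusted p = 3.9e-05), a call that library totals did not give (adjusted p = 0.013). Stim1, the other sensor gene, had a log2 fold change of -0.34 with TMM (edgeR adjusted p = 0.0083) and of 0.33 with library totals alone (edgeR adjusted p = 0.0034), so its direction depended on the scaling. The other 2 of the 5 genes did not pass. With library totals 3 of the 5 were higher and 0 lower.

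Mitochondria take up calcium through the uniporter of their inner membrane and release it through exchangers. Of 8 genes of this uptake and release 4 were higher and 1 lower, or 7 and 1 with library totals alone. The pore gene Mcu was 40.0 ± 1.69 CPM in controls and 64.8 ± 1.57 in knockouts, and the gatekeeper gene Micu2 was 52.0 ± 2.02 and 82.9 ± 3.03 (SD, n = 4 each). Their log2 fold changes were 0.70 and 0.67 (edgeR adjusted p = 6.2e-06 and 9.1e-06). Micu3, a related gatekeeper gene, fell from 24.1 ± 2.85 to 12.4 ± 0.413 CPM (log2 fold change -0.96, edgeR adjusted p = 1.6e-05). The weakest of the higher calls was Mcur1, named after its values were seen (0.29, edgeR adjusted p = 0.0098). It was lost with DESeq2 (adjusted p = 0.011), with RLE scaling, with the replicate block and in 7 of the 8 fits without 1 library.

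Of 14 calcium sensors downstream, the calcineurin, NFAT and CaM kinase II genes, 11 were lower and 1 was higher. With library totals alone 6 were lower and 4 higher, beside 873 lower and 8498 higher of all 14012 genes. The median log2 fold change of the 14 was -0.74 with TMM and -0.07 with library totals. Nfatc3, named after its values were seen, turned from -0.38 with TMM (edgeR adjusted p = 0.00039) to 0.29 with library totals (edgeR adjusted p = 0.0016), as Stim1 did. Camk2a fell from 745 ± 92.3 to 199 ± 26.2 CPM and Rcan2, a regulator of calcineurin, from 73.7 ± 5.85 to 24.8 ± 2.33 CPM (SD, n = 4 each, log2 fold changes -1.90 and -1.57, edgeR adjusted p = 1.3e-06 and 5.9e-07). Camk2d was the 1 higher gene (0.42, edgeR adjusted p = 0.0019), and its call was lost without knockout 4 (0.38, edgeR adjusted p = 0.012).

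**Figure D5:**
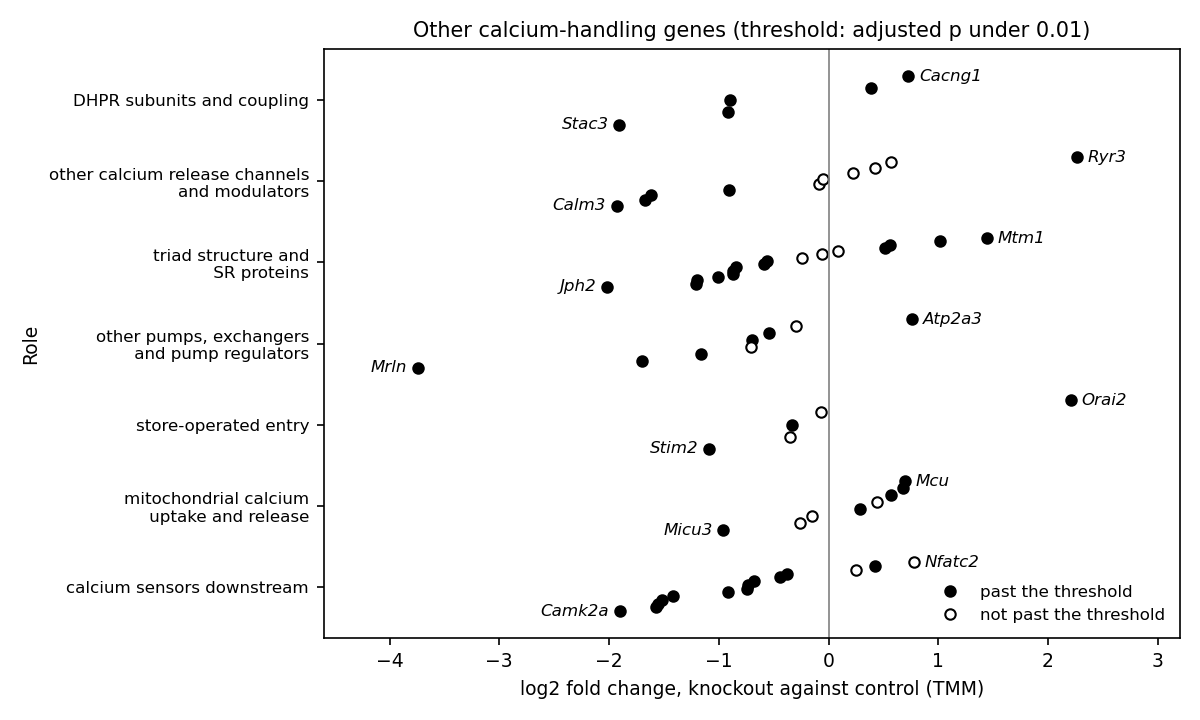
log2 fold change (knockout against control, TMM) of the 66 other calcium-handling genes by role, filled where the adjusted p is under 0.01, with the lowest and highest gene of each role named. Most filled points lie left of 0, and Ryr3 (2.27), Orai2 (2.21) and Mtm1 (1.44) lie furthest to the right.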

How the data were processed

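Polyadenylated RNA of QF was sequenced as read pairs from strand-marking NEBNext Ultra II Directional libraries. For the deposited raw counts, the authors demultiplexed with bcl2fastq 2.20.0.422, trimmed with cutadapt, mapped to GRCm38 with STAR 2.5.4b and counted exonic pairs with Rsubread. They dropped duplicates, chimeras, multimappers and low mapping scores, and genes under 50 reads in total (the lowest total here is 51). Removing duplicates can hold down the counts of the most abundant genes. The annotation release and the strand setting are not given in the sources used here. The deposited FPKM values, made by the authors from these counts, served only as an alternative for the ratios, and the deposited exon widths gave counts per kb. The authors' log2 fold changes and p-values (DESeq2 1.32.0) were not used.

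All 14012 genes were tested with edgeR 4.0.16 (glmQLFit and glmQLFTest, TMM, group as the only term) in R 4.3.3, with Benjamini-Hochberg adjustment and a threshold of 0.01. The procedure was tested on simulated data. That simulation changed few genes, as many up as down, so it does not cover the difference in composition between these groups. Single values had an exact permutation test over all 70 ways to split 4 against 4. The floor of 3 counts is for 95% and covers counting error only. Replicates of a group differed beyond sampling noise (chi-square divided by degrees of freedom 17.2 to 42.7), and that they are separate mice rests on the labels. Alternatives were other scalings, filters, DESeq2 1.42.0, a replicate block, a threshold of 0.05 and each library left out.

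The 10 genes, the 71 other calcium-handling genes and the marker lists were chosen with earlier results of these data known. Named were all 10, then Ryr3, Pln, Atp2a3, Jph2, Asph, Stac3, Cacnb1, Srl, Hrc and Tmem38a, and per role the 2 highest and the 2 lowest log2 fold changes past the threshold, where the higher group had a mean count of 50 or more. Other genes are said to be named after their values were seen. A few genes of these lists are counted but not reported by name here. Markers of cell types were fixed lists. Promoter windows came from RefSeq (GRCm38.p6) and coding sequences from GENCODE M21.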

Additional observations from a re-analysis of the deposited data

Results flagged for a closer look

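In 98 groups of 4 libraries (the 2 groups of each named gene and ratio), 7 had 1 library whose gap to the nearest other, divided by the range, was above Dixon's 95% critical value, and chance gives about 5% of such groups. Among the 10 genes, control 3 had 2263 CPM of Trdn against 1899 to 1943 in the other controls, and knockout 4 had a log2 ratio of Atp2a2 to Atp2a1 of -5.85 against -7.11 to -6.90 in the other knockouts. Among the other calcium-handling genes, control 4 had 0.189 CPM of Ryr3 (3 reads) against 1.18 to 1.22, and control 3 had 506 CPM of Cacna2d1 against 419 to 434. Control 2 had 49.0 CPM of Micu2 against 52.7 to 53.2. Knockout 4 had 106 CPM of Dnm2 against 119 to 121, and 328 CPM of Sypl2 against 364 to 370. No library of the other group came inside these ranges, and each of these genes and the ratio stayed called or without overlap when the library was left out.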

How the results depend on the processing

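For the 10 genes, 168 of 169 values under the alternatives kept their direction and their side of the threshold, the exception being Ryr1 with library totals (-0.12, adjusted p = 0.32). With a minimum of 10 counts in every library Sln was not tested. All 99 values of the 9 ratios kept their direction, also with the deposited FPKM and with 2 counts added. With library totals alone 30 of the 66 other calcium-handling genes were higher and 18 lower, and 8498 and 873 of all genes, against 3303 and 2962 with TMM. Stim1 turned from -0.34 to 0.33 with library totals, and Nfatc3 from -0.38 to 0.29. Leaving out 1 library in turn gave 3 members higher and 7 lower each time, 11 to 14 other calcium-handling genes higher and 33 to 35 lower, and 2596 to 3005 of all genes higher and 2600 to 2937 lower. Of the other named genes 21 values lost the threshold and 3 gained it. Deviations of same-numbered libraries correlated at 0.132, -0.0023, 0.447 and 0.149 for numbers 1 to 4. Controls 1, 3 and 4 were closest to the knockout of their own number, a hint from the data, but control 2 to knockout 1, so the numbers were not taken as pairs. With the number as a replicate block 3 members were higher and 7 lower, 13 and 35 of the other calcium-handling genes, and 3215 and 2908 of all genes. Depth limits Sln and Ryr3 in the controls (5 to 8 and 3 to 18 reads), whose log2 fold changes have standard errors of 0.37 and 0.36. The 4 mice per group limit each permutation test to p = 0.0286, and only RNA was measured, not protein or calcium.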
